A study of Mus musculus with 6 samples.

Results

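Alb, Ttr, Fgb, Itih3 and Apoa5 encode proteins that hepatocytes secrete into blood plasma, and their transcripts were followed here on arrays labelled muscle, adipose tissue and liver. The 5 genes were taken by symbol from the platform annotation, which gave each of them 1 probe, so they made up 5 of 21020 probes with a symbol and 5 of 16675 genes. All mice were ob/ob (B6.V-Lepob/J), which lack functional leptin and become obese and insulin resistant. They were fasted for 4 h and received by mouth either MCSE, a watery extract of Momordica charantia (bitter melon) seeds, or phosphate-buffered saline (PBS). Glucose was injected into the peritoneum 15 min later at 1 g/kg body weight, and tissues were taken 4 h after the glucose. There were 6 one-colour arrays, 1 for each of 2 treatments in 3 tissue labels: PBS muscle, MCSE muscle, PBS adipose, MCSE adipose, PBS liver and MCSE liver. The labels name no mouse per array, no fat depot and no particular muscle, and do not say whether mice were pooled. With 1 array per group, a difference between MCSE and PBS had no replicate check and was given no p-value.

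Albumin (Alb) is the main protein of plasma and carries fatty acids and hormones, and transthyretin (Ttr) carries thyroxine and the retinol-binding protein. Fgb encodes the beta chain of fibrinogen, which thrombin turns into the fibrin of a clot. Itih3 encodes a heavy chain of the inter-alpha-inhibitor family, which is attached to hyaluronan in the extracellular matrix. Apoa5 encodes a scarce apolipoprotein that helps lipoprotein lipase clear triglycerides. Hepatocytes transcribe such genes under a shared set of factors, among them HNF1, HNF4 and C/EBP proteins. In an acute phase response albumin and transthyretin synthesis typically falls while fibrinogen synthesis rises.

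The labels of the arrays were checked against marker genes first. On PBS muscle and MCSE muscle the fast skeletal muscle list had median log2 normalized intensities of 15.91 and 15.90, and on the 4 other arrays its median was between 9.11 and 9.44. The list of hepatocyte enzymes and transporters had medians of 10.04 on PBS liver and 9.92 on MCSE liver. Its median was 9.79 on PBS adipose, 9.82 on MCSE adipose, 9.05 on PBS muscle and 9.16 on MCSE muscle. That list thus set the liver label little apart from the adipose label. The arrays labelled liver also carried genes of other organs. The white adipocyte list had medians of 14.40 on PBS liver and 14.77 on MCSE liver, and the kidney list 11.91 and 13.19. The white adipocyte list had its lowest median on PBS adipose, below 12.86 on PBS muscle and 12.91 on MCSE muscle. On MCSE adipose the median of that list was 14.70. The label of PBS adipose was thus not borne out by this list. MCSE adipose matched MCSE liver with a Pearson correlation of 0.982 over all probes, whereas PBS adipose correlated with the other 5 arrays at between 0.307 and 0.517. A tissue name below is therefore the label of an array. The share of a cell type in a sample and the amount of RNA per cell cannot be told apart in such data.

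Alb, Ttr and Fgb followed 1 pattern, bright on PBS liver, MCSE liver and MCSE adipose and far dimmer on the other 3 arrays. Alb had a log2 normalized intensity of 15.79 on PBS liver, 15.36 on MCSE liver, 15.31 on MCSE adipose, 12.35 on PBS muscle, 10.44 on MCSE muscle and 8.84 on PBS adipose. The median of all probes was a log2 intensity of 8.95, called the middle of the scale below, so Alb was below the middle of the scale on PBS adipose only. Ttr lay at 14.20 on MCSE liver, 14.13 on PBS liver and 14.07 on MCSE adipose, then at 9.80 on PBS muscle, 8.87 on MCSE muscle and 8.39 on PBS adipose. The 3 bright values of Ttr lay within 0.13 of each other, less than the error gauge of 0.61 described below, so their order carries no information. Fgb lay at 13.32 on PBS liver, 11.87 on both MCSE liver and MCSE adipose, 8.62 on PBS muscle, 8.26 on PBS adipose and 7.90 on MCSE muscle. PBS liver was the brightest array for Fgb, by 1.45 over the next.

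Itih3 was above the middle of the scale on the liver-labelled arrays only. Its log2 intensity was 10.31 on PBS liver and 9.05 on MCSE liver, and it stayed under the middle of the scale on MCSE adipose (8.76), PBS adipose (8.67), PBS muscle (8.17) and MCSE muscle (8.10). These 4 lower values differed by little more than the error gauge and their order is not resolved. Apoa5 went the other way from a hepatocyte gene. It was brightest on PBS adipose at 12.46, followed by MCSE muscle at 11.09, PBS muscle at 10.98, MCSE adipose at 10.90 and MCSE liver at 10.38, and was dimmest on PBS liver at 8.68. The probe annotated as Apoa5 thus had its lowest value on the array where Alb, Fgb and Itih3 had their highest. The label of a hepatocyte gene did not hold for this probe on these arrays, and the identity of the probe could not be checked, since no probe sequences were used here.

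**Figure D1:**
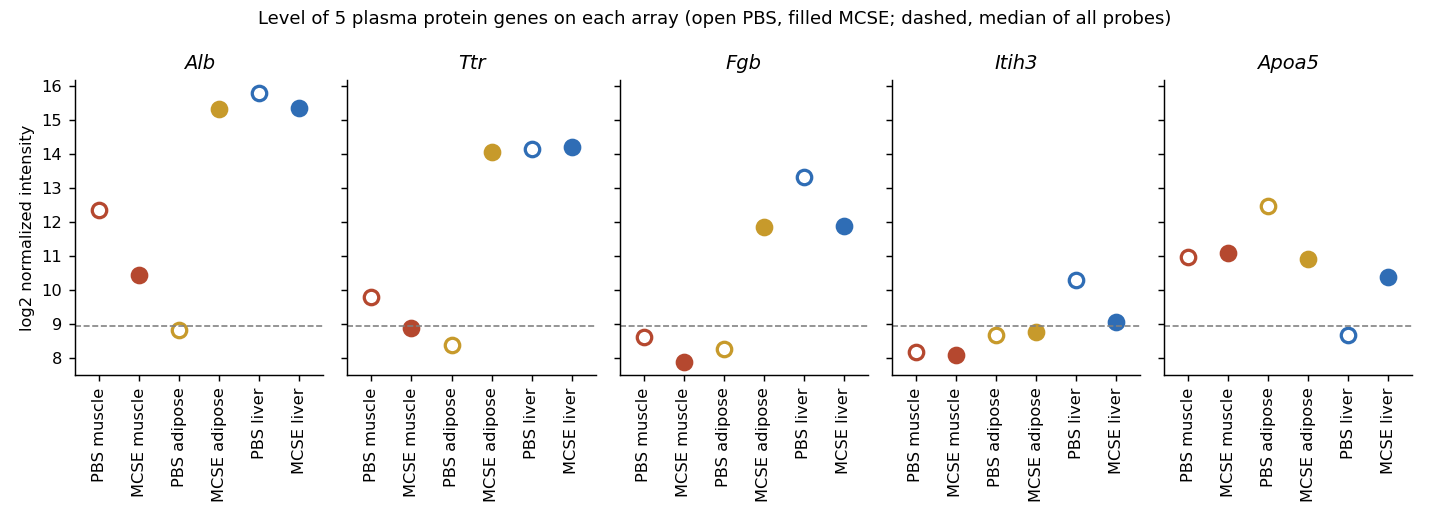
Log2 normalized intensity (vertical axis) of each of the 5 genes on each of the 6 arrays (horizontal axis), 1 point per array, open for PBS and filled for MCSE; the dashed line is the median of all probes. Alb, Ttr and Fgb are high on PBS liver, MCSE liver and MCSE adipose, whereas Apoa5 is lowest on PBS liver (8.68) and highest on PBS adipose (12.46).

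The likeness of these patterns was measured as the root mean square difference over the 6 arrays after each gene was centred on its own mean, against 6980 other genes with a range of at least 2 on the log2 scale. The 3 genes nearest to Alb were Enpp2 (0.57), Gsta3 (0.59) and Fabp1 (0.60), and Ttr was the fourth, with rank 4 and a difference of 0.63. Fabp1, the liver fatty acid-binding protein, resembled Alb on the muscle arrays too, with a log2 intensity of 10.75 on PBS muscle and 8.16 on MCSE muscle. The nearest to Ttr were Gatm (0.37), an enzyme of creatine synthesis that is also abundant in kidney, Apoc1 (0.48) and Gsta3 (0.50). Fgb was nearest to H2-Q10 (0.23), a class I histocompatibility gene of the liver, Ela1 (0.41), a pancreatic elastase, and Sycp3 (0.42). Itih3 was nearest to Fcrla (0.06), Zfp458 (0.12) and Lancl2 (0.13), and Apoa5 to Mark4 (0.23), Th (0.26) and 1700034F02Rik (0.26). Profiles were centred but not scaled, so the measure also compares the range of 2 genes. Itih3 ranged over 2.20 and Alb over 6.95, so Itih3 could not lie near Alb whatever its shape. Alb was among the least similar genes to Apoa5, at rank 6972 of 6980. These are descriptions over 6 arrays that include nearly identical ones.

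Promoter sequences are shown for Alb and Fgb, which were bright on the same arrays, and for Apoa5, which was not. The promoter of Ttr, the third gene of the bright pattern, was not analysed here. Each run is the 250 bases before the annotated transcription start in RefSeq (build GRCm38.p6), read in the direction of transcription; capitals mark matches to GTTAAT, a half-site of HNF1, to CCAAT, or to TATAAA, on either strand. The Alb promoter lies at chr5:90460620-90460869 on the plus strand, that of Fgb at chr3:83049864-83050113 on the minus strand and that of Apoa5 at chr9:46268358-46268607 on the plus strand, the more upstream of 2 annotated starts.
Alb: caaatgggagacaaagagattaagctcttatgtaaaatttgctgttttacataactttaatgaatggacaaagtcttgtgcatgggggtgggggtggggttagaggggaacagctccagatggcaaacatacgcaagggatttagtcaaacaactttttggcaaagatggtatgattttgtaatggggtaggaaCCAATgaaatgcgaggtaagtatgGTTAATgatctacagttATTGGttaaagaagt
Fgb: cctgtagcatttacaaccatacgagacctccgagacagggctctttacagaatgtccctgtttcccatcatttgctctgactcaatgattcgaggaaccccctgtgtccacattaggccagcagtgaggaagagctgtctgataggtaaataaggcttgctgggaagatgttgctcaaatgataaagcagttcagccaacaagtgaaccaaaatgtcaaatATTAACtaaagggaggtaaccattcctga
Apoa5: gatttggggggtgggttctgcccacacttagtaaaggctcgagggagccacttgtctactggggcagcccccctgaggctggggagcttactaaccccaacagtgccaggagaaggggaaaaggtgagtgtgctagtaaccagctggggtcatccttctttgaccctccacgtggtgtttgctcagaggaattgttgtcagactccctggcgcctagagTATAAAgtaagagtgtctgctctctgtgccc
GTTAAT stood 32 to 27 bases before the Alb start and, on the opposite strand, 29 to 24 bases before the Fgb start, and was not found in the window of Apoa5 or in the matching window of Itih3. It occurred in 6.43% of 32851 promoter windows of this length. CCAAT stood at 2 places in the Alb window and occurred in 33.8% of windows. TATAAA stood 31 to 26 bases before the Apoa5 start and occurred in 12.4% of windows. TATATA, searched as well, was in none of these 4 windows (0) and occurred in 5.25% of all. A match is a run of letters and not a bound site, and a missing one says only that these letters are not in the window.

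The next comparison was between the liver and muscle labels, with the PBS and MCSE arrays as the 2 samples of each label. Alb, Ttr and Fgb were higher on both liver-labelled arrays than on both muscle arrays by 2-fold or more. In the fit across all probes with limma, Alb was 4.18 ± 2.07 (SE) higher on the log2 scale on the liver label, Ttr 4.83 ± 1.77 and Fgb 4.34 ± 1.25. Itih3 was 1.54 ± 0.55 higher, and its lowest liver value was within 2-fold of the muscle arrays. Apoa5 differed by -1.50 ± 0.80, with both liver-labelled values (8.68 and 10.38) below both muscle values (10.98 and 11.09). None of these passed. With limma on all 6 arrays and Benjamini-Hochberg adjustment over 22441 probes, 0 of the 5 genes were called. Their adjusted p lay between 0.568 and 0.678. An unadjusted p from limma under 0.05 was found for 3 of them (Ttr, Fgb and Itih3), and for 1709 of the 22441 probes. Over all probes that fit called 53 (0.236%), and 0 of these were higher on the liver label.

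All arrays share 1 estimate of the spread, and the 2 adipose-labelled arrays differed by 6.48 for Alb alone. With only the 4 muscle and liver arrays, 3940 probes passed (17.6%) and 10.7% of all probes passed as higher on the liver label and 6.87% as lower. In that fit Alb (adjusted p from limma 0.0158), Ttr (0.00424) and Fgb (0.00991) passed and Itih3 (0.0708) and Apoa5 (0.127) did not. Leaving out PBS adipose or MCSE adipose alone gave this same fit. With either muscle array (PBS or MCSE) or either liver-labelled array (PBS or MCSE) left out of the 6, limma called 0 of the 5 genes and 0 probes, and between 491 and 822 probes had an unadjusted p under 0.05. The size of the Apoa5 difference rested on PBS liver, since without it the difference was -0.65 and without MCSE liver it was -2.35. That of Itih3 was 0.91 and 2.17 in the same 2 fits.

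The 7 lists of plasma protein genes held 66 further genes on the array. Of these, 27 (40.9%) lay at least 2-fold higher on both liver-labelled arrays than on both muscle arrays and 0 lay as far below, against 8.48% and 5.03% of all 16675 genes. Of the 5 genes 3 were above and 0 below. With the 4-array fit of limma, 32 of 63 further plasma protein probes that passed the filter (50.8%) were higher on the liver label and 0 were lower, and with all 6 arrays 0 passed either way. Counting the 5 genes in, 30 of 71 genes were above both muscle arrays. This was 33 with MCSE liver alone and 36 with PBS liver alone. A single array is an easier condition for any gene, and its share over all genes was not counted. The count was 29 when MCSE adipose had to be above the muscle arrays as well, as held for 7.90% of all genes. Hepatocyte enzymes and transporters were at least 2-fold above the muscle arrays in 9 of 20 genes (45%) and hepatocyte transcription factors in 2 of 10 (20%). The median liver minus muscle values of these 2 lists were 1.05 and -0.13. Kidney genes moved with the same contrast, 11 of 12 being above the muscle arrays, and so did adipocyte genes with 7 of 12. Their part in the values of the plasma protein genes was not tested.

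**Figure D2:**
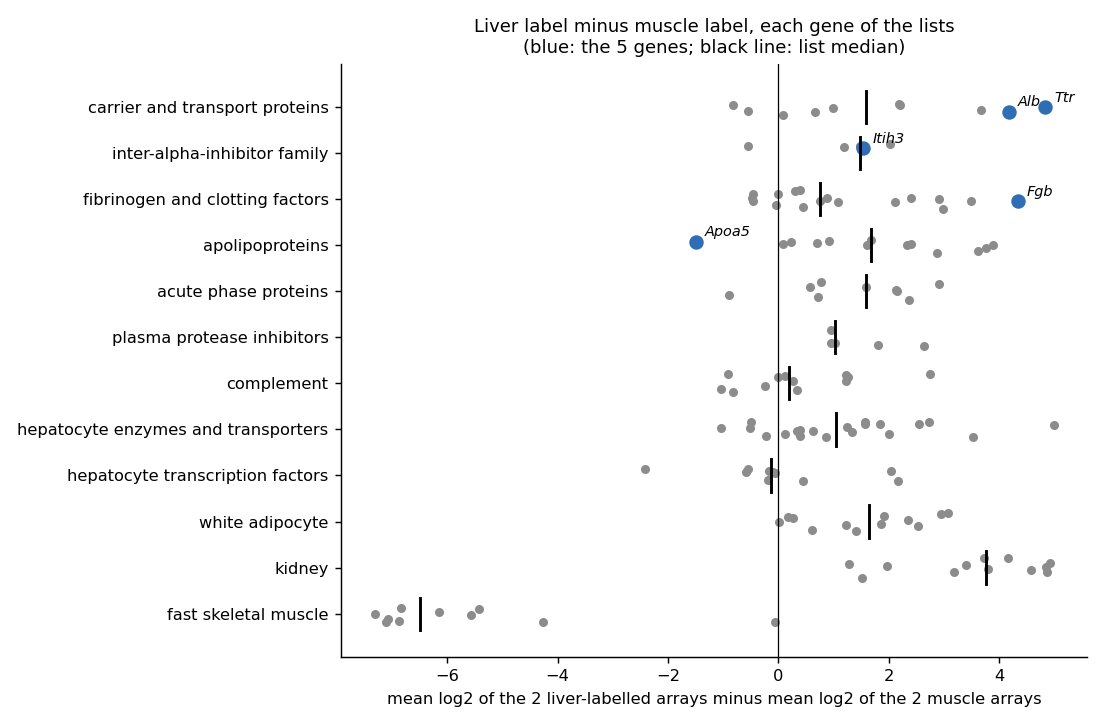
Mean log2 intensity of the 2 liver-labelled arrays minus that of the 2 muscle arrays (horizontal axis), 1 point per gene, for 12 gene lists (vertical axis; vertical scatter within a list is for display); blue points are the 5 genes and black lines list medians. Alb, Ttr and Fgb lie between 4.18 and 4.83, Itih3 at 1.54 and Apoa5 at -1.50, the lowest of the plasma protein genes shown.

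Partners of the 5 genes did not all follow them. Fgg, the gamma chain of fibrinogen, lay at 11.46 on PBS liver, 11.22 on MCSE liver and 11.31 on MCSE adipose, and at 8.46, 8.24 and 7.97 on PBS muscle, MCSE muscle and PBS adipose. Fgg thus had the pattern of Fgb, without the step of Fgb between PBS liver and the other 2 bright arrays. Rbp4, which travels in plasma bound to transthyretin and is also made by adipocytes, lay at 14.60 on PBS liver, 13.60 on MCSE liver and 13.58 on MCSE adipose, against 10.30 and 10.55 on the muscle arrays and 7.74 on PBS adipose, where it was at the floor of the scale.

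In the inter-alpha-inhibitor family, Itih1 resembled Itih3 in being brightest on PBS liver (10.82, with 9.87 on MCSE liver, 9.88 on MCSE adipose, 8.40 and 8.23 on PBS and MCSE muscle and 9.58 on PBS adipose). Ambp, the precursor of the light chain bikunin, was brightest on PBS liver too at 11.07, with 10.45 on MCSE liver, 10.62 on MCSE adipose and 9.03 and 9.54 on PBS and MCSE muscle. Itih4 was brightest on MCSE adipose (9.83), a little higher on MCSE liver (9.70) than on PBS liver (9.31), and lay at 8.37 and 8.27 on the muscle arrays. Itih2 stood apart with its highest value on PBS adipose (11.52), and 9.16 on PBS liver was below 9.80 on PBS muscle. The family therefore held 2 kinds of pattern, and only Itih1 was at least 2-fold above both muscle arrays on both liver-labelled arrays.

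Apoa1, Apoa4 and Apoc3 are neighbours of Apoa5 in 1 gene cluster. Apoc3, which slows triglyceride clearance, lay at 11.82 on PBS liver and 12.18 on MCSE liver, against 8.49 and 8.29 on the muscle arrays and 8.09 on PBS adipose. Apoa1, the main protein of high-density lipoprotein, lay at 12.29 and 12.73 on PBS and MCSE liver and at 11.54 and 11.62 on PBS and MCSE muscle, a smaller difference of 0.93 between the labels (adjusted p 0.0649 in the 4-array fit of limma). Apoa4 varied between 11.22 on MCSE muscle and 12.36 on PBS adipose on its brighter probe. Its second probe disagreed, with its lowest value (7.92) on PBS adipose and its highest (9.84) on MCSE adipose. None of these 3 had its lowest value on PBS liver, as Apoa5 did.

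**Figure D3:**
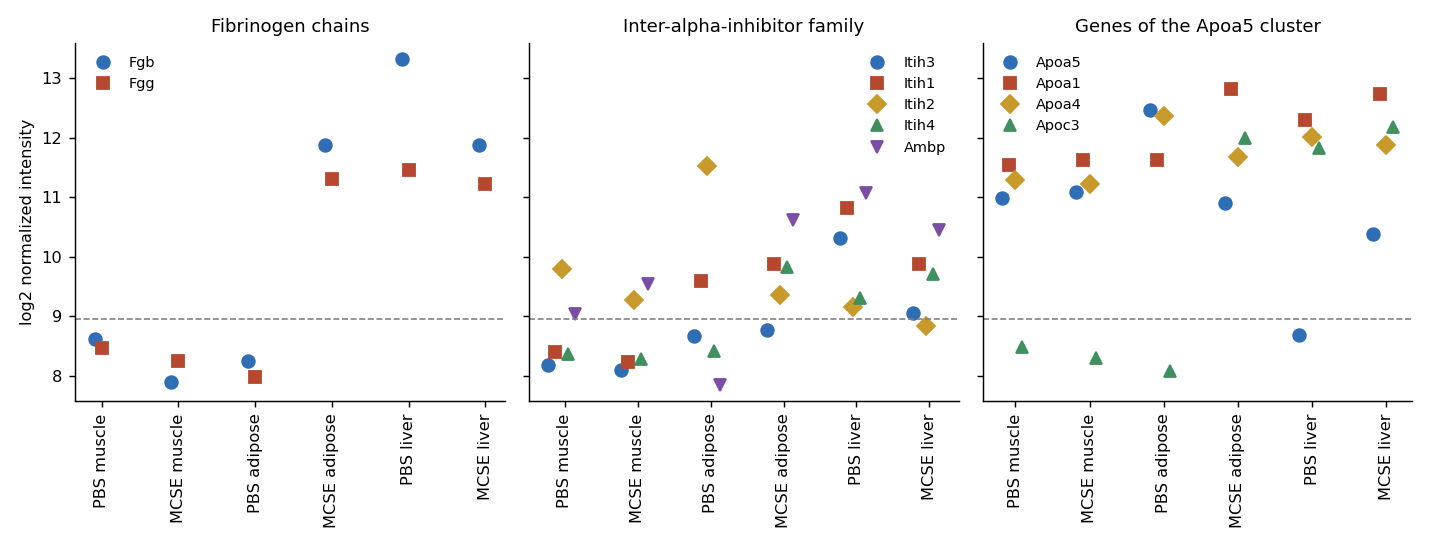
Log2 normalized intensity (vertical axis) on each array (horizontal axis) of Fgb and Fgg, of the inter-alpha-inhibitor family and of Apoa5 with its cluster neighbours, 1 point per gene and array; the dashed line is the median of all probes, and a gene is to be compared across arrays, not with another gene. Fgg and Apoc3 are high on PBS liver, MCSE liver and MCSE adipose, while Itih2 (11.52) and Apoa5 (12.46) are highest on PBS adipose.

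MCSE was next compared with PBS on the liver label, as log2 MCSE minus PBS, with 2-fold as the threshold for naming a difference. The gauge of error was the SD per probe, taken from the gap between the differences of 2 probes of the same gene, and came to 0.61 on the liver pair and 0.52 on the muscle pair. It holds no variation between mice. Fgb was 2.73-fold lower on the MCSE liver array (-1.45), Itih3 2.39-fold lower (-1.26) and Apoa5 3.25-fold higher (1.70). The values of Alb (-0.42) and Ttr (0.06) were smaller than this SD. Of all 11342 genes measured on this pair, meaning genes at or above the median of all probes on 1 of its 2 arrays, 14.3% passed 2-fold, 8.27% as higher and 6.01% as lower. All 5 genes were measured, and 1 was higher and 2 were lower. Apoa5 counts as measured through MCSE liver (10.38) only, since it lay under the middle of the scale on PBS liver (8.68). Itih3 lay close to the middle of the scale on MCSE liver (9.05).

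PBS liver was the array that stood apart for these 3 genes. It was at least 2-fold above the 5 other arrays for Fgb and Itih3, as for 0.894% of all genes. Fgb had the same value on MCSE liver and MCSE adipose (11.87), and Itih3 differed between them by 0.28, so that MCSE adipose lay as far below PBS liver as MCSE liver did. Since that pair of arrays was nearly identical over all probes, it is no second sample. Apoa5 was at least 2-fold dimmer on PBS liver than on PBS muscle, MCSE muscle, MCSE adipose and MCSE liver, a pattern held by 2.43% of all genes and by none of the 66 further plasma protein genes (0). Both patterns include the 2-fold step on the liver pair for which these genes were named above. The shares over all genes therefore do not measure how rare the patterns are. The first was held by 149 genes and the second by 405, while 682 measured genes were 2-fold lower and 938 higher on that pair.

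**Figure D4:**
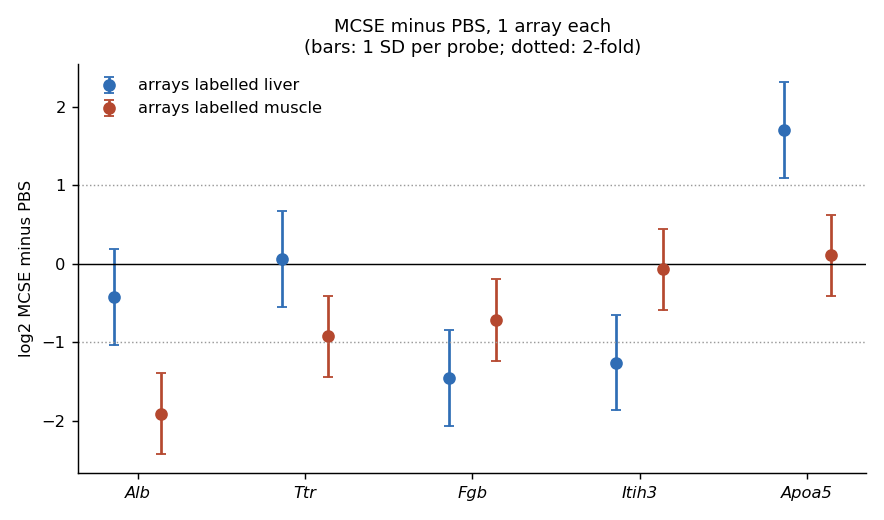
Log2 MCSE minus PBS (vertical axis) of the 5 genes (horizontal axis) on the liver pair (blue) and the muscle pair (red), 1 array per treatment; bars are 1 SD per probe (0.61 and 0.52), not a spread between mice, and dotted lines mark 2-fold. On the liver pair Fgb (-1.45), Itih3 (-1.26) and Apoa5 (1.70) lie past 2-fold, and on the muscle pair Alb (-1.91) does.

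Other plasma protein genes seldom passed 2-fold between the 2 liver-labelled arrays. Of 54 measured ones, 0 were 2-fold higher and 1 was 2-fold lower, against 8.27% and 6.01% of all measured genes. Of the 54, 37 were below 0, against 5776 of all 11342 measured genes. Their median was -0.16, against -0.02 over all measured genes. Beyond the SD per probe there were 19 of the 54, of which 4 were higher and 15 lower. Among all measured genes 36.3% lay beyond it, and these were not split by direction. The lower one was F12, clotting factor XII, at -1.71, with log2 intensities of 11.53 on PBS liver and 9.82 on MCSE liver. F12 was also bright on PBS adipose (11.70). Carrier proteins had a median of -0.17, from -0.999 for Rbp4 to 0.17 for Ahsg, the calcium-binding fetuin. Fibrinogen and clotting genes had a median of -0.28, with Serpinc1, which encodes antithrombin, at -0.93 and Kng1, the kininogen gene, at 0.99. The second, dimmer Kng1 probe differed by 0.29 on this pair, and in the 4-array fit both Kng1 probes were higher on the liver label than on muscle (2.40 and 1.75, adjusted p from limma 0.0311 and 0.0135).

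Over all genes, 5776 of 11342 measured ones were below 0 on the liver pair. The inter-alpha-inhibitor family had a median of -0.62, with 4 of 5 genes below 0 and Itih1 at -0.94. Acute phase genes were below 0 in 7 of 7 measured members, with a median of -0.44, from Hamp, the hepcidin gene, at -0.99 to Mbl2 at -0.16. Among them Hp, haptoglobin, differed by -0.27 and Serpina3n by -0.83. Apolipoproteins had a median of -0.06 and Apoa5 was the only member past 2-fold, while Apoe differed by -0.21, Apoc1 by -0.15 and Apoc4 by -0.84. Plasma protease inhibitors had a median of 0.17, from Pzp at -0.14 to Serpinf2 at 0.91 (0.86 on its second probe), with Serpina1e at 0.52. Complement genes had a median of -0.10, with C9 at -0.71, C3 at -0.39, C8b at 0.31 and Hc at 0.58. Both C8b and Hc were brighter on both muscle arrays than on both liver-labelled ones. C8b lay at 15.95 and 15.83 on PBS and MCSE muscle, and at 14.83 and 15.14 on PBS and MCSE liver.

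Lists of other genes on the same pair moved in other ways. Hepatocyte enzymes and transporters had a median of 0.01, with Hgd, which breaks down tyrosine, at 1.41, Cyp2e1 at 1.18 and Fbp1 at 0.61. Baat was at -0.18 and Cyp7a1, the first enzyme of bile acid synthesis, at -1.08. Baat was brighter on PBS and MCSE muscle (15.40 and 15.11) than on PBS and MCSE liver (14.30 and 14.12). Hepatocyte transcription factors had a median of 0.04, and Onecut1 (3.06), Hnf4a (1.53) and Cebpa (1.24) were 2-fold higher, Foxa1 (-1.14) was lower and Nr1h4 was at -0.07. Onecut1, like Apoa5, was at least 2-fold dimmer on PBS liver than on both muscle arrays, MCSE adipose and MCSE liver, but its second probe, a dim one, gave -0.34, while that of Cebpa gave 0.74 and that of Fbp1 0.55. Kidney genes had a median of 1.21 with 7 of 12 2-fold higher, Lrp2 at 1.88 (0.17 on a dim second probe), Miox at 0.97 and Kap at -0.02, and the log2 of their summed intensity was 17.08 on PBS liver and 17.82 on MCSE liver. White adipocyte genes had a median of 0.42 with 2 of 12 higher, Cd36 at 1.61, Lpl at 0.12 (-0.50 on its second probe), Fabp4 at 0.09 and Cidec at -0.29, and a summed intensity of 18.19 and 18.59. Macrophage genes had a median of -0.17, from Marco at -0.85 to Cd14 at 1.28, with Lyzs at -0.17 and C1qa at -0.65. Of 3 pancreatic genes Ela1 differed by -0.55, Ctrb1 by -1 and Cel by -0.46, and of 2 red blood cell genes Alas2, the erythroid haem synthesis enzyme, by -4.14 and Slc4a1 by 0.06. Fast skeletal muscle genes had a median of -0.44, from Tnnc2 at -1.26 to Mylpf at 0.71, with Acta1 at -0.78. Whether a different mixture of organs contributed to the differences of Fgb, Itih3 and Apoa5 was not tested.

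**Figure D5:**
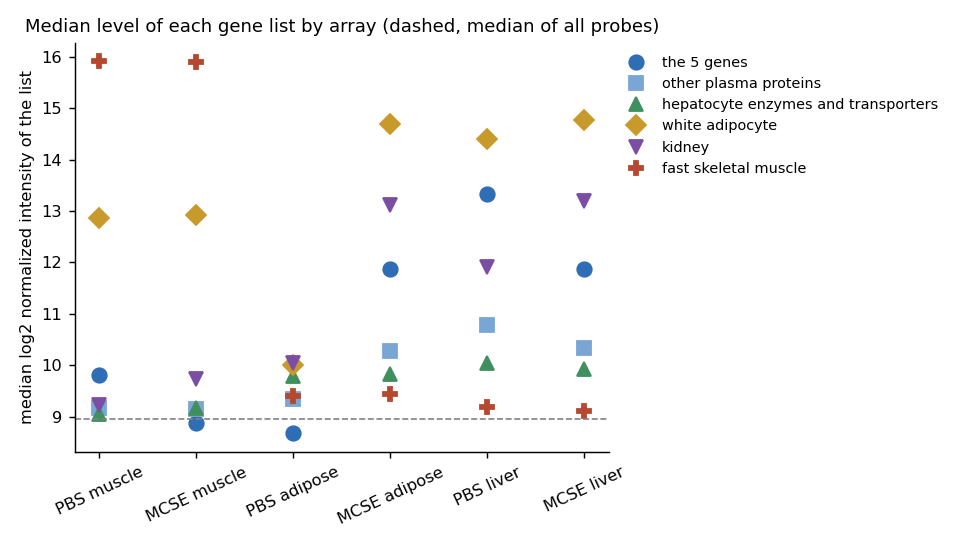
Median log2 normalized intensity (vertical axis) of 6 gene lists on each array (horizontal axis), 1 symbol per list; the dashed line is the median of all probes, and lists are to be compared across arrays. Plasma protein, adipocyte and kidney genes are all higher on PBS liver, MCSE liver and MCSE adipose than on the muscle arrays, and the kidney median is 11.91 on PBS liver against 13.19 on MCSE liver.

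Alb signal was also present on the muscle label. It had an intensity of 5227 on PBS muscle and 1389 on MCSE muscle, above 94.1% and 78.2% of the probes of those arrays, whereas on PBS adipose it was above 46.8%. MCSE muscle was 3.76-fold lower in Alb than PBS muscle (-1.91), 3.7 times the SD per probe on this pair. Ttr was 1.90-fold lower (-0.93) and went from above to just below the middle of the scale. Fgb (-0.72) and Itih3 (-0.07) were under the middle of the scale on both muscle arrays and count as not measured, and Apoa5 differed by 0.10. Of the 3 measured genes, 1 was 2-fold lower, where 1.88% of 10711 measured genes were, and 0 were higher, against 3.90% (5.78% in all).

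The fall-off from liver to muscle was not the same for each gene or treatment. Between PBS liver and PBS muscle the log2 difference was 3.43 for Alb, 4.34 for Ttr, 4.70 for Fgb and 2.13 for Itih3. Between MCSE liver and MCSE muscle it was 4.92 for Alb, 5.32 for Ttr, 3.97 for Fgb and 0.94 for Itih3. For Fgb and Itih3 the muscle arrays were under the middle of the scale, where a lower level could hardly show. Apoa5 differed by -2.30 and -0.70 in these comparisons.

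No other plasma protein gene measured on the muscle pair was 2-fold lower on MCSE muscle, as Alb was. Of 41 measured ones 0 were 2-fold lower and 2 were higher, Saa4 (1.12) and Kng1 (1.04, but -0.29 on its second probe), with a median of 0.02 against -0.05 over all measured genes. Of the 41, 19 were below 0, against 5923 of 10711 measured genes. Genes too dim to count as measured include Apoh, at 8.43 on PBS muscle and at the floor of 7.74 on MCSE muscle. Fabp1, not in these lists and named above for its likeness to Alb, lay at 10.75 and 8.16. The lowest was Apoa2, a high-density lipoprotein component, at -0.86, with 9.35 on PBS muscle and 8.49 on MCSE muscle. By list the medians on the muscle pair were -0.05 for carriers, -0.01 for the 2 measured inter-alpha-inhibitor genes, 0.14 for clotting genes, -0.07 for apolipoproteins, 0.24 for acute phase genes, -0.04 for protease inhibitors and -0.11 for complement. Hepatocyte enzymes and transporters had a median of -0.04, with Fbp1 alone past 2-fold at 1.14 and 1.15 on its 2 probes, and hepatocyte transcription factors one of 0.14.

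Kidney genes went the other way from Alb on this pair. Their median was 0.70, Kap (3.20) and Slc34a1 (1.12) were 2-fold higher among 9 measured, and the log2 of their summed intensity was 12.70 on PBS muscle and 13.95 on MCSE muscle. White adipocyte genes had a median of 0.18, with a summed intensity of 17.54 and 17.45, macrophage genes one of 0.37, pancreatic genes 0.10, red blood cell genes -0.10 and fast skeletal muscle genes -0.03. The part of these cell types in the Alb difference was not tested.

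The array labelled PBS adipose was dim for 4 of the 5 genes. Alb, Ttr, Fgb and Itih3 all lay below the middle of its scale, and Alb was 6.95 below PBS liver. Apoa5 was 1.37 above the next array, PBS adipose being at least 2-fold above all others for 16.7% of genes. Among the 66 further plasma protein genes 9 (13.6%) shared this, with F9, clotting factor IX, 3.73 above the next array and Serpina6, which binds glucocorticoids, 2.97 above it. The 2 adipose-labelled arrays differed by 5.68 for Ttr, 3.61 for Fgb, 0.09 for Itih3 and -1.55 for Apoa5 (MCSE minus PBS). Because PBS adipose correlated weakly with all others, these differences describe 2 arrays only.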

How the data were processed

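Amplified total RNA carried the Cy5 dye and went onto one-colour arrays, per the labels' protocols. The authors deposited normalized intensity values on a linear scale for 29922 probes and 6 arrays; the submitters' processing notes name limma, with background correction, normalization and build not given in the sources used here. All 6 arrays share 1 distribution (median log2 8.95, sorted values within 0.038 of each other's median), which stretches a weak array. No detection calls were used. Before log2, values under the 5th percentile (214.2) were set to it, and genes were represented by their brightest probe. List symbols were matched through synonyms in RefSeq. The 5 genes, the 15 lists and the naming rule were chosen with earlier results of these data known. The rule took, per list, the 2 genes brightest on PBS liver and the highest and lowest MCSE minus PBS there, plus partners and the 3 nearest genes per member; Cyp2e1, Cebpa, Slc34a1, Saa4, Apoa2, F9 and Serpina6 were named after their values were seen.

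For muscle against liver labels, limma 3.58.1 was run in R 4.3.3 (lmFit, eBayes, probes with a mean at or above the 25th percentile, adjusted p under 0.05 and 2-fold). The code was tried on simulated arrays with independent noise of equal size. These arrays are unlike that, so the trial does not show how the fit behaves on them. The 2 arrays of a label differ in treatment, so their spread holds any MCSE effect, and their number limits the precision. Python 3.11.15, numpy 2.4.6, pandas 2.3.3, statsmodels 0.14.6 and matplotlib 3.10.9 were used.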

Additional observations from a re-analysis of the deposited data

How the results depend on the processing

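The MCSE minus PBS values of the 5 genes on the liver and muscle pairs kept their sign and moved by less than the SD per probe under centring, removal of a brightness trend and 32 added before log2. Quantile normalization and the mean over probes could hardly move them, since the arrays already share 1 distribution and each gene has 1 probe. Over these, Fgb on the liver pair ranged from -1.45 to -1.40, Itih3 from -1.26 to -1.21, Apoa5 from 1.63 to 1.71 and Alb on the muscle pair from -1.91 to -1.86. The number of probes called between muscle and liver labels with limma was 53; it was 3940 with only the 4 muscle and liver arrays, 33 without the filter on dim probes, 0 with treatment as a term, which pairs the arrays of a treatment (1997 at an unadjusted p under 0.05), and from 0 to 3940 when 1 array was left out. The count with MCSE adipose added to the liver-labelled arrays was chosen after seeing the data, as were those with 1 liver-labelled array. Dim values, such as those of Itih3 and that of Apoa5 on PBS liver, limit what differences could show.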
